A study of Homo sapiens with 12 samples.

Results

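The nuclear-encoded respiratory chain genes examined here were the 71 genes, of 60583 in the deposited tables, whose symbols name subunits of complex I (37 genes beginning NDUFA, NDUFB, NDUFC, NDUFS or NDUFV), complex III (8 UQCR genes), complex IV (10 COX genes) and ATP synthase (16 ATP5 genes). They were chosen by symbol alone, and no measured value entered the choice. The symbol rule keeps NDUFA4, now counted with complex IV, among the NDUF genes, and leaves out CYC1 and NDUFAB1.

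Nascent RNA was measured by TT-seq, which labels newly made RNA with 4-thiouridine and sequences the labelled fraction after fragmentation. The cells were U2OS (human osteosarcoma) and a derivative, U2OS-AsiSI, expressing the restriction nuclease AsiSI fused to an estrogen receptor domain (AsiSI-ER). Each was transfected with siCtrl or siINTS11 and collected 48 h later, with 3 libraries in each of 4 groups. OHT (4-hydroxytamoxifen), given for 1 h and to U2OS-AsiSI alone, brings AsiSI-ER into the nucleus, so line, nuclease and OHT differ together and cannot be told apart in a comparison of the lines. INTS11 is the endonuclease of Integrator, a complex that cuts nascent transcripts of RNA polymerase II. All 12 libraries come from a single osteosarcoma background, and the labels do not say whether replicates were separate cultures, so p-values measure only the spread between these libraries. In bulk libraries, fewer cells making a transcript and less RNA per cell cannot be told apart.

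The respiratory chain passes electrons from NADH through complex I, ubiquinone, complex III and cytochrome c to oxygen at complex IV, and ATP synthase uses the proton gradient that results. Most subunits are encoded in the nucleus by short, widely expressed genes, and a small core is encoded by mitochondrial DNA, so subunits from both genomes have to be assembled together. Promoters of the nuclear genes are known for sites of NRF1, of the ETS factor GABP (also called NRF2) and of YY1.

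Library totals ran from 20704611 to 38065726 counts, and the U2OS-AsiSI siINTS11 libraries were the shallowest. INTS11 itself had 9.64, 11 and 9.83 CPM (counts relative to the library size, scaled by TMM over all 12 libraries) in the U2OS-AsiSI siCtrl libraries and 9.01, 9.33 and 9.49 in those labelled siINTS11 (log2 change -0.13, SE 0.08, edgeR adjusted p = 0.172, with the sign turning to 0.06 under library totals alone). In U2OS it had 10.1, 8.88 and 10.1 CPM against 7.86, 7.07 and 7.19 (log2 change -0.42, SE 0.09, edgeR adjusted p = 6.08e-05). An siRNA acts on mature RNA, which was not measured, so siINTS11 below means the libraries labelled so. The osteoblast-lineage and mesenchymal markers summed to 1090 to 1630 CPM per library, with COL1A2 and TWIST1 near 0. Epithelial markers summed to 93.2 to 152 CPM, mostly from KRT8 and KRT18, and haematopoietic markers to 2.26 to 4.41 CPM. The epithelial sum was higher in the siINTS11 libraries (117 to 124 CPM in U2OS, 139 to 152 in U2OS-AsiSI) than under siCtrl (93.2 to 100.0 and 99.8 to 112), and the mesenchymal sum was lower (1130 to 1210 and 1090 to 1140, against 1530 to 1630 and 1420 to 1460). Their part in the results below was not tested.

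Of the 71 genes, 58 had enough reads to be tested in every comparison (30 of complex I, 7 of complex III, 8 of complex IV and 13 of ATP synthase). The other 13 had at most 9 reads in any library, and 8 of them had 0 reads in all 12. These 13 were NDUFA7, NDUFA9, NDUFA11, NDUFA13, NDUFB8, NDUFC2, NDUFV2, UQCR11, COX6A1, COX8A, ATP5MF, ATP5MG and ATP5PO. Each of them lay, over 95.9% to 100.0% of its length, inside other genes annotated on the same strand, often read-through or clone-named ones. NDUFC2, for example, lies wholly within NDUFC2-KCTD14, which had 138 to 259 reads per library, and ATP5PO wholly within AP000311.1, which spans 346.9 kb and had 226 to 365. The 58 tested genes were covered over at most 44.7% of their length and had a mean of at least 15 reads. Of all protein-coding genes, 1225 of 19574 (6.26%) were covered over 95% of their length, against 18.3% of the respiratory chain genes. The median mean count of those 1225 was 0, against 310.0 for the other protein-coding genes. The 95% limit was set after these values were seen. A count near 0 in these 13 genes therefore goes with how the annotation overlaps and is no measure of their transcription.

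**Figure D1:**
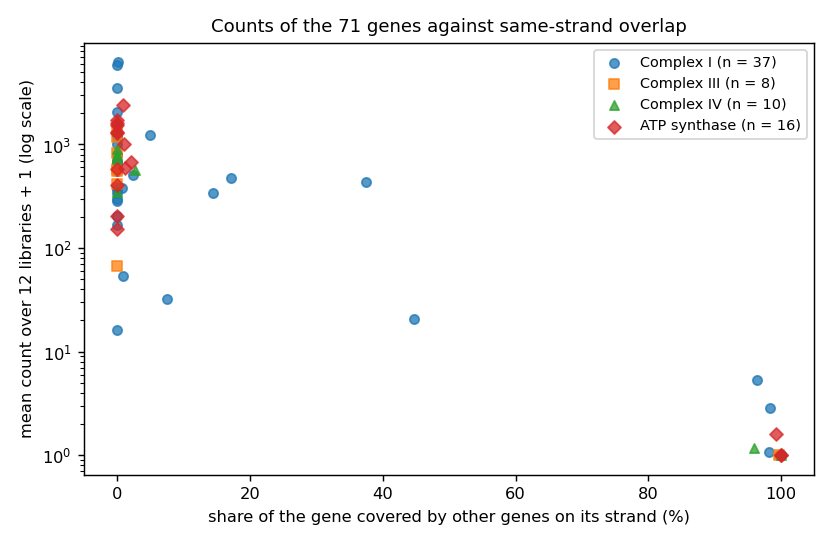
Mean count over the 12 libraries, plus 1 on a log axis, against the share of each gene's length covered by other genes on its strand, for all 71 genes with a symbol for each complex. The 13 genes at 95.9% or more all sit at a mean of 4.33 reads or fewer, and the 58 others at 15 or more.

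Among the 58 tested genes, 5 had a mean under 100 reads: NDUFA3 (15), NDUFS3 (19.6, with 44.7% of its length covered), NDUFA6 (31), NDUFS1 (52.7) and UQCRC2 (66.8). NDUFS1 encodes the largest core subunit of complex I and UQCRC2 a core subunit of complex III. NDUFS1 spans 44.69 kb with 0.875% of it covered on its strand, and UQCRC2 spans 30.37 kb with no overlap on either strand. Per kb of gene they had 0.0476 and 0.0843 CPM in the U2OS siCtrl libraries, against a median of 2.04 over the 58. The cause of these low counts was not tested.

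Levels per length differed widely among the other subunits. In the U2OS siCtrl libraries the highest value was that of UQCR10, a small complex III subunit, at 6.15 CPM per kb, followed by COX7C at 6.09, the Rieske protein gene UQCRFS1 at 5.99 and ATP5F1E, the epsilon subunit of ATP synthase, at 5.69. The median level was 1.34 CPM per kb for complex I, 2.61 for ATP synthase, 2.65 for complex III and 2.93 for complex IV. Introns were counted, so long members carried many of the reads. NDUFS4, NDUFA10 and NDUFA12, the only tested members over 100 kb, together had 506.1 ± 16.8 CPM (SD, n = 3) in the U2OS siCtrl libraries, while the other 55 together had 1347 ± 17.5. The median span of the 71 genes was 12 kb, from 1.895 kb (ATP5ME) to 132.9 kb (NDUFA10), against 27.3 kb for protein-coding genes.

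Promoter windows of 59 members, from 250 bases before to 50 bases after the start site, were found in RefSeq (GRCh38.p14), 1 of them under an older symbol. Each motif was searched on both strands as GCGCA, any base, then GCGC for NRF1, CCGGAAG for ETS factors such as GABP, ATGGCGG for YY1 and GGGCGG for Sp factors, and matches of different motifs may overlap. The YY1 letters were present in 32.2% of members, 11.3% of tested protein-coding genes and 6.66% of all genes in the promoter table. The ETS letters were present in 32.2%, 20.2% and 12.2%, and the NRF1 letters in 22.0%, 12.1% and 6.98%. The Sp letters were present in 66.1% of members and 75.3% of tested protein-coding genes. At least 1 of the first 3 motifs was present in 69.5% of members and 36.6% of tested protein-coding genes. A match is a description of letters and shows no binding.

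The 4 stretches below show these letters in place, cut back to bases that lie in no annotated gene of the deposited tables. They were chosen after the matches were seen. UQCRH and NDUFA1 are the whole gaps between head-to-head gene pairs that are compared further on, NDUFA12 carries NRF1 letters ahead of a long member, and UQCR11 carries NRF1 and ETS letters ahead of a gene that had 0 reads. Capitals mark CCGGAAG or its reverse complement, and the NRF1 match or its reverse complement, and each run reads 5′ to 3′ on the strand of the gene.
UQCRH, GRCh38.p14 chr1:46303609-46303697, plus strand: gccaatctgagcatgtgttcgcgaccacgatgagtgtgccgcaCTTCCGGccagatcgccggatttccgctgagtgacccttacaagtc
NDUFA1, GRCh38.p14 chrX:119871734-119871831, plus strand: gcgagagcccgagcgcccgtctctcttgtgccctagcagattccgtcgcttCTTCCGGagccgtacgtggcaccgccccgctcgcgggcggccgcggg
NDUFA12, GRCh38.p14 chr12:95003749-95003947, minus strand: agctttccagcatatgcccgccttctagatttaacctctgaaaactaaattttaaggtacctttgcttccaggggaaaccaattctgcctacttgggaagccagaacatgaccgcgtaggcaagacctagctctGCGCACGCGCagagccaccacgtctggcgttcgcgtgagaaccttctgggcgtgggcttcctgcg
UQCR11, GRCh38.p14 chr19:1605474-1605712, minus strand: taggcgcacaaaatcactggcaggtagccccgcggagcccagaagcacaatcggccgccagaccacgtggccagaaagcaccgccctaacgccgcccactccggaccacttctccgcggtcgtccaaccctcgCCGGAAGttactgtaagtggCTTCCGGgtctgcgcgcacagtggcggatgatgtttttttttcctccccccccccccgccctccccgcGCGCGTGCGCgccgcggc

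After siINTS11 in U2OS-AsiSI, respiratory chain genes changed little and in both directions. Of the 58 tested genes, 22 (37.9%) were called at an edgeR adjusted p below 0.05 (quasi-likelihood test), and 68.0% of all 20441 genes tested were. Of the 22 members called, 8 were higher and 14 lower. All genes split into 35.4% higher and 32.6% lower. Of 13774 protein-coding genes tested, 3941 were higher and 5440 lower, with a median log2 change of -0.05. The median log2 change of the 58 was 0.0, beside 0.03 for all genes. Their median absolute change was 0.12, beside 0.35 for all genes and 0.28 for protein-coding genes, and no member changed 2-fold. The largest change was a 1.48-fold fall. Of the 22 calls, 16 held with each of the 6 libraries left out in turn, 5 higher and 11 lower. These changes are relative to a typical gene. Scaled by library totals alone, all genes had a median of 0.22 in place of 0.03, the members 0.19 in place of 0.0, and 34 members were called higher and 3 lower, so that the direction of some members, each with a negative value under TMM, turns on the scaling. The composition factors that TMM applied were 1.078 to 1.117 in the siINTS11 libraries and 0.9399 to 0.9684 in the siCtrl libraries of this line. The higher calls also fell to 5 without siCtrl replicate 1, without siINTS11 replicate 2, with DESeq2, and among genes under 0.1 reads per base, and rose to 14 among genes with a mean of at least 50 reads.

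Complex I held the largest single changes, with 3 genes higher and 8 lower of 30. Most of the falls were in this complex, but so were most of the genes tested. ATP synthase had 4 lower of 13. NDUFB10, an accessory subunit of the membrane arm and at 2.438 kb the shortest complex I gene tested, had 4.99, 5.61 and 4.71 CPM under siCtrl and 6.99, 7.4 and 6.57 under siINTS11. The 3 siINTS11 libraries all lay above the siCtrl libraries (log2 change 0.45, SE 0.10, edgeR adjusted p = 0.000284). NDUFB9, another membrane arm subunit, rose by 0.15 (SE 0.05, edgeR adjusted p = 0.00335). NDUFC1 was called higher by 0.19, but its groups overlapped and it lost the call without siCtrl replicate 1 or 2 or siINTS11 replicate 2 (edgeR adjusted p 0.0634 to 0.133).

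NDUFA5, a subunit of the peripheral arm, fell furthest. It had 22.9, 21.1 and 22 CPM under siCtrl and 15.9, 14.2 and 14.2 under siINTS11, with no overlap (log2 change -0.57, SE 0.07, edgeR adjusted p = 8.56e-09). NDUFS4, an accessory subunit of the same arm whose loss causes Leigh syndrome, had 214, 210 and 203 CPM against 165, 157 and 148. All 3 siINTS11 libraries lay below the siCtrl libraries (log2 change -0.41, SE 0.05, edgeR adjusted p = 6.1e-09). The other members over 100 kb were lower too, NDUFA12 by a log2 change of -0.26 (SE 0.05) and NDUFA10 by -0.19 (SE 0.05). NDUFB2 in the membrane arm went from 18.2, 18.6 and 19.3 to 15, 13.7 and 14.3 CPM (log2 change -0.37, SE 0.07, edgeR adjusted p = 1.36e-05), and NDUFA1, which is needed to assemble the complex, from 7.67, 7.99 and 8.55 to 6.6, 6.43 and 5.92 (log2 change -0.35, SE 0.09, edgeR adjusted p = 0.00158). Neither gene's groups overlapped.

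Among the catalytic core subunits of complex I, NDUFS1 had a log2 change of -0.45 (SE 0.17, edgeR adjusted p = 0.0197) from a low level of 2.17, 2.1 and 2.01 against 1.33, 1.37 and 1.85 CPM, and lost its call without siINTS11 replicate 1 (adjusted p = 0.1) or replicate 2 (0.0666). NDUFV1, which binds NADH, had 0.16 (SE 0.08, edgeR adjusted p = 0.0734) and was not called.

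In complex III 2 genes were higher and 1 lower of 7. UQCRQ, a ubiquinone-binding subunit, had 13.3, 13.3 and 14.5 CPM under siCtrl and 15.6, 17.8 and 15.9 with siINTS11, without overlap (log2 change 0.26, SE 0.07, edgeR adjusted p = 0.00202). UQCR10 was higher by 0.17 (SE 0.06, edgeR adjusted p = 0.0182), a call lost without siCtrl replicate 1 or 2 or siINTS11 replicate 2. UQCRB, the ubiquinone-binding neighbour of UQCRQ in the complex, fell by 0.22 on the log2 scale (SE 0.06, edgeR adjusted p = 0.00201). The core and catalytic genes UQCRC1 and UQCRFS1 had changes of 0.02 (SE 0.06) and -0.0 (SE 0.05) and were not called.

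Complex IV also had 2 genes higher and 1 lower, of 8. COX4I1, the main isoform of the regulatory subunit that binds ATP, had 43.3, 44.7 and 45.6 CPM under siCtrl and 51.0, 52.7 and 52.6 under siINTS11. The groups did not overlap, and the log2 change was 0.23 (SE 0.05, edgeR adjusted p = 0.000121). COX6B1, on the side facing cytochrome c, was called higher by 0.13 but lost the call in each of the 6 fits (edgeR adjusted p 0.0533 to 0.0742). COX6C fell by 0.21 (SE 0.05, edgeR adjusted p = 0.000456).

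In ATP synthase 1 gene was higher and 4 lower, of 13. ATP5MC1, which encodes the proton-carrying subunit c, had 13.4, 13.5 and 13.6 CPM under siCtrl and 15.5, 17.7 and 15.9 under siINTS11, without overlap (log2 change 0.28, SE 0.07, edgeR adjusted p = 0.000803). The other genes for the same mature subunit, ATP5MC2 and ATP5MC3, had 0.03 (SE 0.05) and 0.06 (SE 0.06) and were not called. The lower genes were ATP5PD (-0.26) and ATP5PB (-0.18) of the peripheral stalk, and ATP5F1C (-0.17) and ATP5F1A (-0.12), the gamma and alpha subunits of the catalytic head. ATP5F1A lost its call without siCtrl replicate 1 or 2 or siINTS11 replicate 3 (edgeR adjusted p 0.0569 to 0.107). ATP5MC1 and ATP5PD each lie wholly opposite a gene on the other strand, and averaged 405 and 575 reads over the 12 libraries. The 13 genes covered on their own strand averaged at most 4.33. In complex I, NDUFB9 lies over 72.7% of its length opposite genes on the other strand. NDUFC1, NDUFB2 and NDUFV1 are partly covered on their own strand, over 37.4%, 17.1% and 14.3%. The strand setting of the counting is not given in the sources used here.

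**Figure D2:**
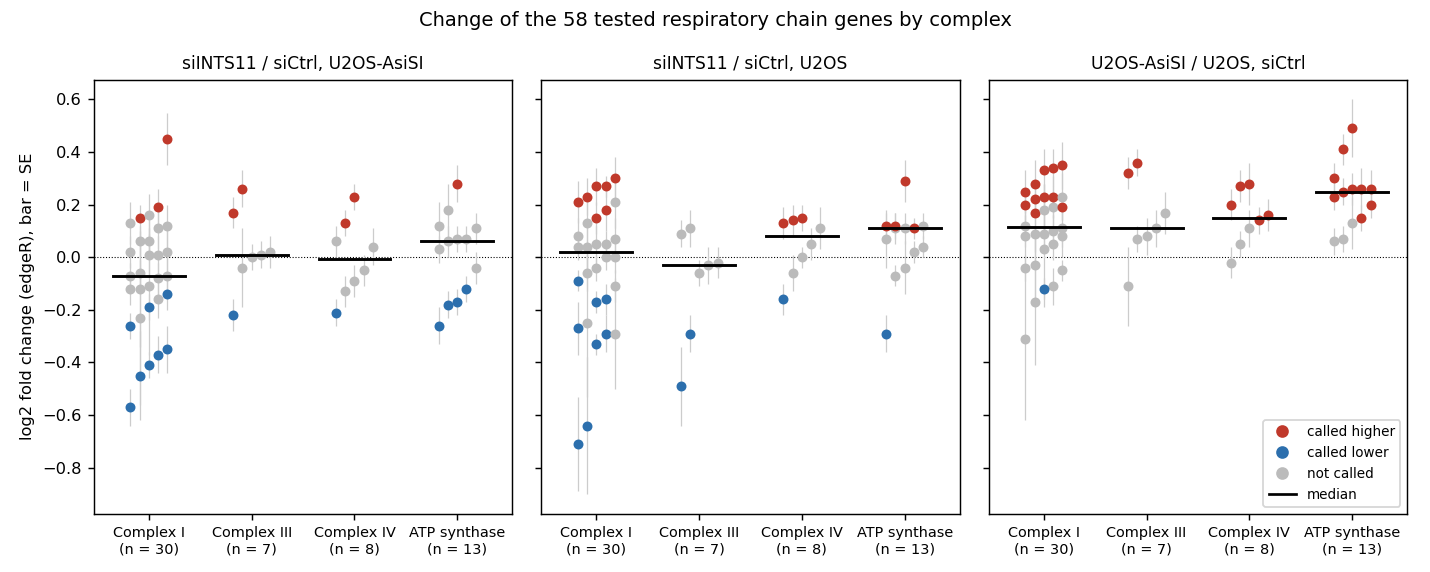
Log2 fold change (edgeR, bars SE) of the 58 tested genes by complex in 3 comparisons, coloured by call at an adjusted p of 0.05, with a line at each median. The siINTS11 panels scatter around 0 in every complex, and in the siCtrl comparison of the lines 49 of 58 points lie above 0, including all 13 of ATP synthase.

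The same comparison in U2OS, which has no AsiSI-ER and had no OHT, called 26 of 58 genes (44.8%), against 66.9% of 20687 genes. Here 14 were higher and 12 lower, with a median log2 change of 0.04, beside 0.02 for all genes, and again no member changed 2-fold. All genes split into 34.5% higher and 32.4% lower. Of 13832 protein-coding genes tested, 3885 were higher and 5421 lower, with a median log2 change of -0.05. Of the 26 calls, 13 held with each library left out, 6 higher and 7 lower. Higher calls dropped to 7 without siCtrl replicate 3, to 7 without siINTS11 replicate 1 and to 9 without siINTS11 replicate 2. With DESeq2 6 were higher, and with libraries thinned to the smallest total 6. Scaling by library totals alone gave 41 higher and 2 lower, with a median of 0.24.

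By complex, 7 genes were higher and 8 lower in complex I, none higher and 2 lower in complex III, 3 higher and 1 lower in complex IV, and 4 higher and 1 lower in ATP synthase. NDUFV1 rose most. It had 10.7, 8.57 and 8.89 CPM under siCtrl and 12.6, 11.3 and 11.3 under siINTS11, without overlap (log2 change 0.30, SE 0.08, edgeR adjusted p = 0.00182). NDUFB9, at 101, 105 and 104 CPM against 128, 128 and 125, had the smallest adjusted p among the rises (log2 change 0.27, SE 0.04, edgeR adjusted p = 7.35e-08). NDUFB3 rose by 0.27 (SE 0.07) and ATP5MC1 by 0.29 (SE 0.08).

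The falls in U2OS were led by low-count core genes. NDUFS1 had 1.75, 2.35 and 2.29 CPM against 1.66, 1.18 and 1.15, all siINTS11 values being lower (log2 change -0.71, SE 0.18, edgeR adjusted p = 0.000505). UQCRC2 had 2.84, 2.52 and 2.33 CPM against 2.12, 1.67 and 1.76 (log2 change -0.49, SE 0.15, edgeR adjusted p = 0.00436). NDUFS3, the other low-count core gene, had -0.64 (SE 0.26, edgeR adjusted p = 0.0302), lost without siCtrl replicate 1 or 3 or siINTS11 replicate 1 or 3. Among well-read genes NDUFS4 went from 220, 231 and 232 to 187, 177 and 191 CPM (log2 change -0.33, SE 0.04, edgeR adjusted p = 1.96e-09). UQCRB, ATP5PD and NDUFA5 each had a log2 change of -0.29 (SE 0.07), and the NDUFA5 groups overlapped.

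Both lines called the same 13 members (22.4% of 58), against 56.7% of 20121 genes tested in both, and 12 of the 13 moved the same way. The 5 higher in both were NDUFB9, NDUFC1, COX4I1, COX6B1 and ATP5MC1. The 7 lower in both were NDUFA1, NDUFA5, NDUFA10, NDUFS1, NDUFS4, UQCRB and ATP5PD. In U2OS the NDUFA1 groups overlapped and its call was lost without siCtrl replicate 1 or 2 or siINTS11 replicate 2 (edgeR adjusted p 0.0575 to 0.135), and COX6B1 lost its call there without siCtrl replicate 2 or 3 or siINTS11 replicate 1 or 2 (0.0513 to 0.141). ATP5F1A was called in opposite directions, with 62.9, 63.4 and 63.3 CPM against 58, 59.7 and 56.3 in U2OS-AsiSI and 53.6, 55.7 and 52.9 against 60.3, 58.3 and 60.1 in U2OS. In U2OS its log2 change was 0.11 (SE 0.04, edgeR adjusted p = 0.0272), a call lost without siCtrl replicate 3 or siINTS11 replicate 1 or 3.

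**Figure D3:**
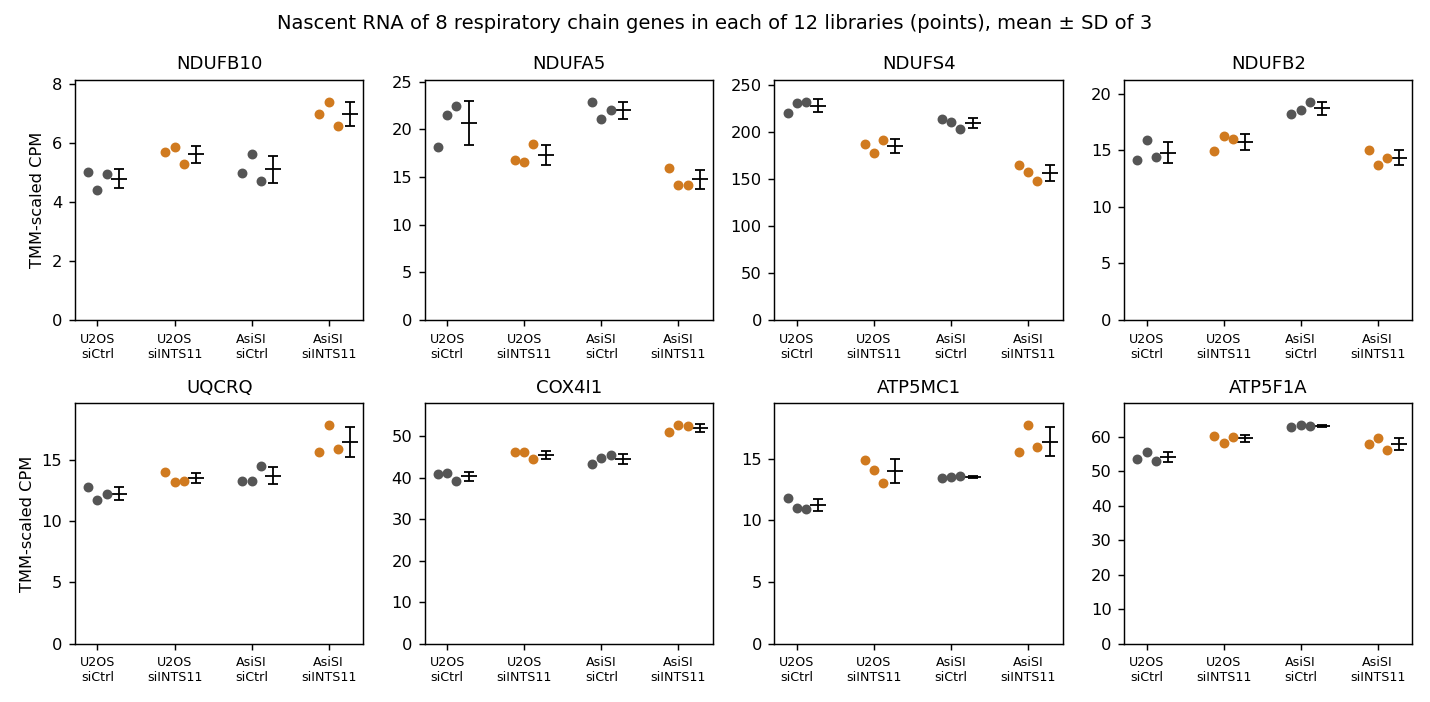
TMM-scaled CPM of 8 genes in each of the 12 libraries (points, grey siCtrl, orange siINTS11), with mean ± SD of 3 libraries beside them and axes from 0. COX4I1 and ATP5MC1 sit higher under siINTS11 in both lines, NDUFS4 lower in both, and ATP5F1A lower in U2OS-AsiSI and higher in U2OS.

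The difference itself was tested as an interaction in a fit of all 12 libraries. That test called 5 of 58 members (8.62%), against 3.87% of 21521 genes and 4.87% of 14120 protein-coding genes tested. All 5 members had a more negative change in U2OS-AsiSI, as had 668 of the 832 genes called. These 668 were 3.1% of genes tested, with 0.762% called in the other direction. The genes were NDUFB2 (-0.46, SE 0.09, edgeR adjusted p = 0.00504), NDUFB3, ATP5F1A, ATP5F1C and COX6C. NDUFB2 kept its call with each of the 12 libraries left out but not with libraries thinned to the smallest total (-0.40, SE 0.12, edgeR adjusted p = 0.0516). The other 4 lost theirs in 4 to 10 of the 12 fits. The members called fell as low as 1, without U2OS siCtrl replicate 3, U2OS siINTS11 replicate 1 or 3, or U2OS-AsiSI siINTS11 replicate 3. The directions of this comparison rest on the settings: higher calls were 19.7% of all calls, but 39.6% with median-of-ratios size factors, 40.9% with DESeq2, 29.5% with library totals, 30.2% for genes under 0.1 reads per base, 56.6% with no count filter and 67.0% with a mean of at least 50 reads. The 2 siCtrl groups and the 2 siINTS11 groups all enter this test, so it shares every library with the comparisons above.

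Summed over the 58 genes, nascent reads were 1985, 1980 and 1998 CPM in the U2OS-AsiSI siCtrl libraries and 1879, 1927 and 1855 under siINTS11. In U2OS they were 1839, 1874 and 1844 CPM, against 1898, 1842 and 1839 after siINTS11. The fall in U2OS-AsiSI lay in complex I (1073 ± 8.13 to 981.8 ± 9.92 CPM, SD, n = 3), and most of it in the 3 members over 100 kb, whose sum went from 477.1 ± 17.9 to 387.9 ± 11. The other 55 genes summed to 1511 ± 25.7 and 1499 ± 41.5, which overlap. In U2OS the 3 long members were lower too, at 506.1 ± 16.8 and 441.7 ± 9.76 CPM, while the other 55 were higher, at 1353, 1360 and 1327 CPM under siCtrl and 1452, 1412 and 1391 after siINTS11, without overlap.

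Change after siINTS11 went with gene span in U2OS-AsiSI. Across the 58 genes, Spearman's rho between span and log2 change was -0.48, and -0.41 without the 3 genes over 100 kb. Over all 20441 genes tested it was -0.31. Genes are not independent replicates, and members share libraries, so these values are descriptions. Of 10 tested members under 5 kb, 4 were higher and 1 lower, with a median of 0.15. Of 26 members from 5 to 15 kb, 2 were higher and 3 lower (median 0.01), and of 19 from 15 to 50 kb, 2 were higher and 7 lower (median -0.09). All 3 members over 100 kb were lower, with a median of -0.26. In U2OS the members' rho was -0.14 and -0.04 without the 3 long genes, beside -0.26 over all genes. There the members under 5 kb had a median of 0.06 and those of 15 to 50 kb a median of 0.04. The difference between the lines, too, had a rho of -0.43 with span among members and -0.1 over all genes, and the siCtrl comparison of the lines described below a rho of -0.28 among members and -0.35 over all genes. Short members were also denser in reads: 15 of the 58 averaged over 0.1 reads per base, up to 0.192, and rho between read density and log2 change was 0.46 in U2OS-AsiSI and 0.2 in U2OS. The span classes were set after values were seen.

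**Figure D4:**
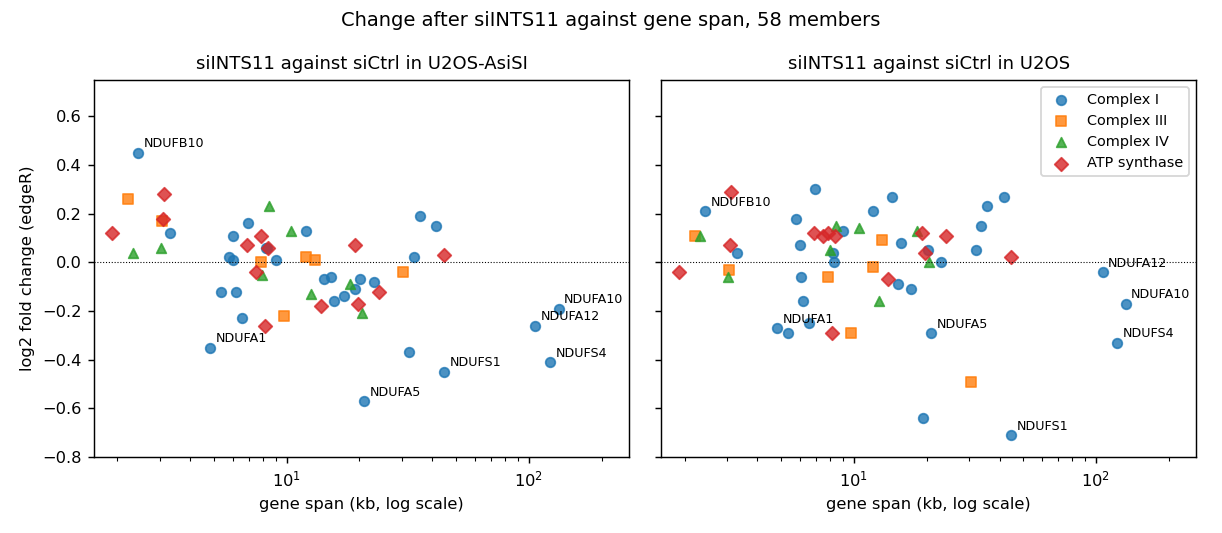
Log2 fold change after siINTS11 against gene span on a log axis, for the 58 tested genes in each line, with a symbol for each complex. In U2OS-AsiSI the 3 genes over 100 kb all lie below 0 and 9 of the 10 genes under 5 kb above it, and in U2OS the short genes lie on both sides of 0.

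Many respiratory chain genes start back to back with another gene. An annotated gene on the other strand starts within 1000 bases of 21 of the 71 (29.6%), against 15.2% of protein-coding genes, and in 16 of the 21 that partner is protein-coding. In U2OS-AsiSI both genes of 12 pairs were tested, and in 10 of them the partner was called after siINTS11, while the respiratory chain gene was called in 5, beside the 68.0% of all genes called. Only UQCR10 with ZMAT5 and ATP5F1A with HAUS1 were called in the same direction. NDUFA1 and RNF113A, which share the 98-base gap printed above, were called in opposite directions: -0.35 (SE 0.09) and 0.68 (SE 0.15, edgeR adjusted p = 0.000222). Across the 89-base gap ahead of UQCRH, LRRC41 fell by 0.45 on the log2 scale (SE 0.05, edgeR adjusted p = 9.93e-09) while UQCRH, the hinge protein that contacts cytochrome c1, had 0.01 (SE 0.05, edgeR adjusted p = 0.904).

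Other pairs parted too. The mitochondrial ribosomal protein gene MRPL36 was higher by 0.32 (SE 0.08, edgeR adjusted p = 0.00106) where NDUFS6 beside it had -0.06 (SE 0.05). CPSF2 was lower by 0.21 (SE 0.05) where NDUFB1 had 0.02 (SE 0.08), and PDCD11 higher by 0.32 (SE 0.05) where ATP5MD had -0.04 (SE 0.06). In U2OS 14 pairs were tested. The partner was called in 7 and the respiratory chain gene in 6, beside 66.9% of all genes, and LRRC41 (-0.44) and UQCRH (0.09) again stood apart. The difference within a pair was not tested.

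**Figure D5:**
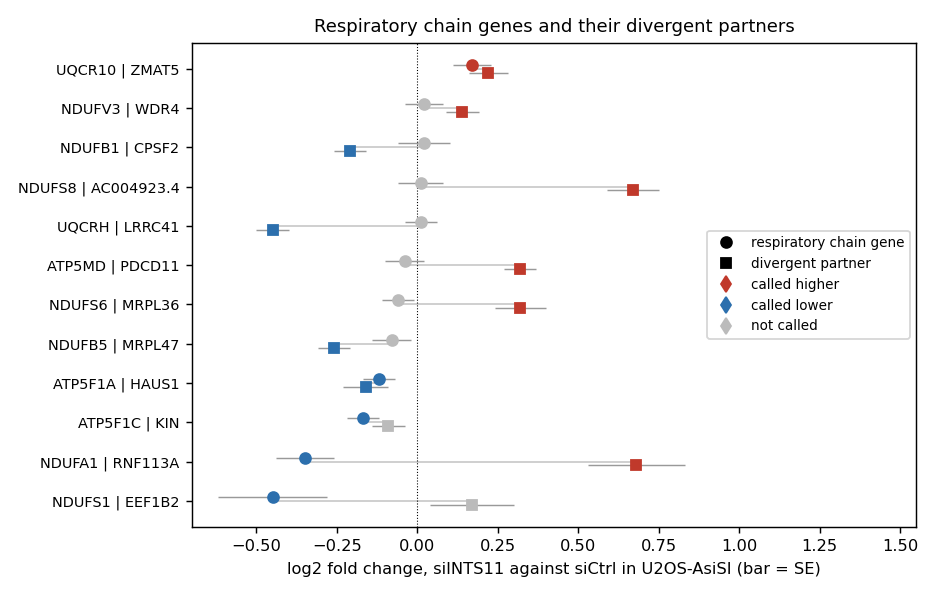
Log2 fold change after siINTS11 in U2OS-AsiSI (bars SE) for the 12 respiratory chain genes (circles) and their divergent partners (squares) that were both tested, coloured by call. In 7 pairs the partner is called and the respiratory chain gene is not.

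Between the lines under siCtrl, respiratory chain genes differed more uniformly. Of 58 genes, 29 (50%) were called in U2OS-AsiSI against U2OS, 28 higher and 1 lower. Over all 19935 genes tested 34.9% were called, 17.8% higher and 17.2% lower. Among 13633 protein-coding genes tested 41.0% were called, 2870 genes higher and 2713 lower. The median log2 difference was 0.17, beside 0.01 for all genes, and 49 of 58 were positive. No difference was over 1.4-fold. With library totals alone no member was lower and the median was 0.22. Of the 29 calls, 21 held with each library left out, all of them higher, and NDUFS4, the lower gene (-0.12, SE 0.04, edgeR adjusted p = 0.0232), lost its call without replicate 2 or 3 of either group.

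ATP synthase led this difference, with 10 of 13 genes higher, a median of 0.25 and no negative value. ATP5MD, a small membrane subunit, had 18.7, 20.4 and 19.3 CPM in U2OS and 25.1, 25.7 and 26.9 in U2OS-AsiSI (log2 difference 0.41, SE 0.06, edgeR adjusted p = 3.41e-06). ATP5F1B, the catalytic beta subunit, had 31.2, 29 and 29 against 34.8, 36.1 and 38.7 (0.30, SE 0.06, edgeR adjusted p = 8.34e-05). ATP5F1D, the delta subunit, had the largest difference, 0.49 (SE 0.11, edgeR adjusted p = 0.000747). None of these 3 overlapped between the lines.

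In complex IV 5 of 8 genes were higher, COX5B by 0.28 (SE 0.08) and COX5A by 0.27 (SE 0.06) among them. In complex III 2 of 7 were higher, UQCRH and UQCRC1. UQCRH had 34.3, 35.2 and 34.5 CPM in U2OS and 44.4, 43.7 and 45.5 in U2OS-AsiSI (0.36, SE 0.05, edgeR adjusted p = 1.04e-06). UQCRC1 had 24.4, 24.5 and 25.1 against 28.7, 30.7 and 32.8 (0.32, SE 0.06, edgeR adjusted p = 6.94e-05). In complex I 11 of 30 were higher, led by NDUFV1 (0.35, SE 0.09), NDUFB2 (0.34, SE 0.07) and NDUFS7 (0.33, SE 0.08). The NDUFV1 groups overlapped between the lines. This comparison shares the siCtrl libraries of both lines with those above, so a gene high in the U2OS-AsiSI siCtrl libraries, such as NDUFB2 at 18.2 to 19.3 CPM, enters both as a higher level here and as a larger fall after siINTS11.

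Other genes of the pathway were taken from lists by function. Their counts stand beside the 68.0% of all genes called in U2OS-AsiSI and the 66.9% called in U2OS. In U2OS-AsiSI all 6 complex III assembly factors tested were called after siINTS11, 4 higher and 2 lower, among them UQCC2 (0.32, SE 0.05) and BCS1L, which inserts the Rieske protein (0.31, SE 0.10). In U2OS 5 of the 6 were called, 4 higher and 1 lower, and BCS1L was higher by 0.59 (SE 0.11, edgeR adjusted p = 1.36e-05). Of 14 complex I assembly factors 4 were higher and 3 lower, with NDUFAF1 higher by 0.62 (SE 0.09) and NDUFAF2, a gene of 207.8 kb, at -0.45 (SE 0.05), and in U2OS 6 were higher and 2 lower. Of 17 complex IV assembly factors tested, 3 were higher and 2 lower, CMC1 furthest at -0.71 (SE 0.05, edgeR adjusted p = 1.76e-13), while in U2OS 8 were higher and 1 lower, with CMC1 at -0.65 (SE 0.04). Of 3 ATP synthase assembly factors, ATPAF1 was lower at -0.25 (SE 0.05), as it was in U2OS (-0.25, SE 0.04).

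Of 14 nuclear regulators of these genes, 3 were higher and 7 lower in U2OS-AsiSI. ESRRA, a nuclear receptor that drives respiratory genes, had 0.54 (SE 0.06, edgeR adjusted p = 1.19e-09), and the ETS factor subunits GABPB1 and GABPA were at -0.42 (SE 0.05) and -0.22 (SE 0.05). In U2OS 8 of 14 were called, 6 higher and 2 lower, with ESRRA at 0.54 (SE 0.06) and GABPB1 at -0.33 (SE 0.04). The median of the 14 was -0.11 in U2OS-AsiSI and 0.09 in U2OS. Of 67 mitochondrial ribosomal protein genes 25 were higher and 17 lower in U2OS-AsiSI, and in U2OS 21 and 8 of 68. Citric acid cycle genes had 1 higher and 5 lower of 13 in U2OS-AsiSI, with SUCLG2, a gene of 294.2 kb, at -0.56 (SE 0.04), and 3 higher and 6 lower in U2OS. Cytochrome c and coenzyme Q genes had 4 higher and 6 lower of 13, with COQ7 at 0.39 (SE 0.08), and in U2OS 3 higher and 2 lower.

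Complex II, whose subunits are all nuclear, had 2 of 4 genes tested, SDHB higher (0.16, SE 0.05) and SDHC lower (-0.16, SE 0.05) in U2OS-AsiSI, and in U2OS SDHB at 0.12 (SE 0.04) and SDHC at -0.22 (SE 0.04). Of 10 other isoforms and related subunits 3 were tested: NDUFAB1 was higher by 0.12 (SE 0.05), and COX7A2L and ATP5IF1, the inhibitor of ATP synthase, were lower at -0.22 (SE 0.05) and -0.68 (SE 0.29). In U2OS 1 of these 3 was higher and 1 lower, with log2 changes from -1.13 to 0.16 and a median of 0.01. The 13 mitochondrially encoded subunits, transcribed by their own polymerase, had a median of 0.16 in U2OS-AsiSI (0.14 to 0.17) with 3 called higher. In U2OS they had a median of -0.10 with 0 called. The difference between the lines had a median of 0.22 among them, also with 0 called. Under siCtrl 34.9% of all genes were called between the lines, 17.8% higher and 17.2% lower. The mitochondrial ribosomal protein genes there had 35 of 68 higher and 1 lower, with a median of 0.19. The mitochondrially encoded subunits had a median of 0.04. Complex IV assembly factors had 9 of 17 higher and none lower there, led by SCO2 (0.73, SE 0.11), and complex I assembly factors 5 of 14 higher, NDUFAF4 (0.40, SE 0.09) among them.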

How the data were processed

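Reads of 12 TT-seq libraries were deposited as raw counts per gene, 2 libraries to a table with the columns featureCounts writes, per the file headers. The submitters' processing notes name hg38, Trimmomatic 0.36, STAR 2.7, deepTools and featureCounts; the strand setting and annotation release are not given in the sources used here. The authors counted whole gene spans, introns included, since gene length equals span for 60536 of 60583 genes, and where genes overlap on a strand their reads cannot be assigned. Libraries were matched by column name and grouped by title.

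From these counts, edgeR 4.0.16 in R 4.3.3 was run with filterByExpr, TMM, estimateDisp, robust glmQLFit and glmQLFTest, two-sided, with Benjamini-Hochberg adjustment over all genes tested at 0.05. Each comparison used its own 6 libraries, and the difference between lines all 12. SE is the absolute log2 change over the square root of F. Printed CPM use TMM factors over all 12 libraries, so their ratios can differ slightly from fitted changes. Counting depth was 20704611 to 38065726 per library, and reads carry no molecular identifiers. The fits were checked on simulated data. Replicates differed by more than sampling noise (chi-square per degree of freedom 1.95 to 2.8).

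The members were set by the symbol rule, and the lists were chosen with earlier results of these data known. Named genes are INTS11, 8 core subunits by role (another is not reported here), the largest rises and falls per complex, the 5 smallest adjusted p in the difference between lines and in the siCtrl comparison, the shortest and longest member per complex, members overlapping on a strand and up to 3 genes per list. Members named outside this rule, such as NDUFA1, NDUFA12 and ATP5F1D, the divergent partners and the span classes were chosen after values were seen. Alternatives were DESeq2 1.42.0, other scalings and filters, thinning, read density, the replicate number as a block and each library left out. Analyses also used limma 3.58.1, Python 3.11.15, pandas 2.3.3 and matplotlib 3.10.9.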

Additional observations from a re-analysis of the deposited data

Results flagged for a closer look

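Respiratory chain genes whose siINTS11 effect differed between the lines, by the interaction test over all 12 libraries, were NDUFB2, NDUFB3, ATP5F1A, ATP5F1C and COX6C. NDUFB2 fell in U2OS-AsiSI (-0.37, SE 0.07) and had 0.05 (SE 0.07) in U2OS, a difference of -0.46 on the log2 scale (SE 0.09, edgeR adjusted p = 0.00504) that kept its call with each library left out and lost it with libraries thinned to the smallest total (-0.40, SE 0.12, adjusted p = 0.0516). NDUFB3 had -0.07 (SE 0.07) against 0.27 (SE 0.07), a difference of -0.37 (SE 0.10, edgeR adjusted p = 0.0274), and lost the call in 10 of 12 fits that each left out a library (adjusted p 0.0553 to 0.0935). ATP5F1A, with -0.12 against 0.11, differed by -0.26 (SE 0.06, edgeR adjusted p = 0.012) and lost the call in 4 of the 12 (0.0524 to 0.139).

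ATP5F1C had -0.17 against 0.04, a difference of -0.24 (SE 0.06, edgeR adjusted p = 0.0232), lost in 7 of 12 (0.058 to 0.199). COX6C had -0.21 against -0.0, a difference of -0.24 (SE 0.07, edgeR adjusted p = 0.0353), lost in 9 of 12 (0.0546 to 0.232). The siCtrl levels of NDUFB2, ATP5F1A and ATP5F1C were higher in U2OS-AsiSI than in U2OS (0.34, 0.23 and 0.15 on the log2 scale), and those libraries enter the difference. Their part in it was not tested.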

How the results depend on the processing

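Of 2301 alternative values for members named by the rule, 2089 kept direction and side of the threshold, 149 lost the call, 50 gained it and 13 reversed, all 13 with library totals alone. In U2OS-AsiSI those became ATP5F1A 0.07, ATP5F1C 0.02, ATP5MD 0.15, ATP5PB 0.01, NDUFB6 0.12 and UQCRFS1 0.19, and in U2OS ATP5PB 0.13, COX6C 0.20, COX7A2 0.03, NDUFA10 0.03, UQCR10 0.16, UQCRC1 0.18 and UQCRFS1 0.14. Sign changes called in neither fit are among the 2089, such as COX7A2 in U2OS-AsiSI (-0.13 to 0.06) and COX7C in U2OS (-0.06 to 0.14). Members outside the rule changed sign too, in U2OS NDUFS6 (-0.09 to 0.11, called in each direction) and NDUFB4 (-0.16 to 0.04) among them. The median of all genes tested moved as well, to 0.22 from 0.03 in U2OS-AsiSI and to 0.22 from 0.02 in U2OS. With library totals alone, members called after siINTS11 were 34 higher and 3 lower in U2OS-AsiSI (median 0.19) and 41 and 2 in U2OS (median 0.24), and between the siCtrl groups 0 were lower (median 0.22). Among all genes the higher share of calls moved to 72.4% from 52.1% in U2OS-AsiSI, to 74.3% from 51.6% in U2OS and to 67.4% from 50.9% between the siCtrl groups.

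Members called higher in U2OS-AsiSI were 5 with DESeq2, 5 under 0.1 reads per base and 14 with a mean of at least 50 reads (median 0.06). In U2OS they were 6 with DESeq2, 9 with no count filter and 6 with thinned libraries. For the difference between lines, genes called were 423 with DESeq2, 447 with median-of-ratios factors and 499 thinned, against 832. Members called lower there were 2 with DESeq2, 2 with library totals, 2 with median-of-ratios factors, 2 thinned, 1 with no filter and 1 with a mean of at least 50 reads (median -0.0).

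Leaving out 1 library gave 5 to 10 members higher in U2OS-AsiSI, 7 to 15 in U2OS, and for the difference 286 to 946 genes, 1 to 6 members lower and a median of -0.09 to 0.01. The lowest gene count came without U2OS siINTS11 replicate 3.

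Within the 3 comparisons of 2 groups, same-numbered replicates had r from -0.173 to 0.223, so the numbers were not taken to pair samples there; the siINTS11 groups of the lines were not compared this way. With the replicate number as a block, 14172 genes were called in U2OS-AsiSI, 13700 in U2OS, 6421 between the siCtrl groups and 531 for the difference, and members higher and lower were 9 and 14, 13 and 11, 27 and 1, and 0 and 4. The lowest counts limit NDUFA3, NDUFS3, NDUFA6, NDUFS1 and UQCRC2, whose SE after siINTS11 ran from 0.15 to 0.33.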

Other observations

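Some genes that cover respiratory chain genes on their strand had changes of their own after siINTS11 in U2OS-AsiSI. AP000721.1, which covers COX8A, had -0.80 (SE 0.10, edgeR adjusted p = 6.88e-08), AC005833.1 over NDUFA9 had -0.88 (SE 0.13, edgeR adjusted p = 4.22e-07) and AL021546.1 over COX6A1 had -0.29 (SE 0.10, edgeR adjusted p = 0.0111). AP001267.5, over ATP5MG, had 1.68 (SE 0.31, edgeR adjusted p = 2.42e-05) from 4 to 30 reads per library. AP000311.1, over ATP5PO, had 0.20 (SE 0.09, edgeR adjusted p = 0.0434). These genes overlap others on their strand over 20.6% to 93.8% of their length, so their reads come from the parts that are theirs alone and cannot be assigned to the respiratory chain gene.

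Divergent neighbours of members with too few reads to be tested were called too. TSSK6, a kinase gene 188 bases from NDUFA13, had 1.12 (SE 0.18, edgeR adjusted p = 1.99e-06) in U2OS-AsiSI and 0.72 (SE 0.17, edgeR adjusted p = 0.000247) in U2OS. AKAP3, 44 bases from NDUFA9, had 0.49 (SE 0.11, edgeR adjusted p = 0.000359) and 0.55 (SE 0.12, edgeR adjusted p = 5.71e-05).

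Between lines, the siINTS11 effect also differed for 3 of 14 regulators: PPARGC1B, a coactivator of respiratory genes, by -0.34 (SE 0.06, edgeR adjusted p = 0.0028), the mitochondrial transcription factor gene TFB2M by -0.28 (SE 0.06, edgeR adjusted p = 0.00922) and PPARGC1A by -0.53 (SE 0.15, edgeR adjusted p = 0.0394). COQ8A, of coenzyme Q synthesis, differed by -0.45 (SE 0.07, edgeR adjusted p = 0.000665) and COX7A2L by -0.26 (SE 0.07, edgeR adjusted p = 0.0242). These values share all 12 libraries, and their direction carries the dependence on settings given for this comparison.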
